A study of Mus musculus with 4 samples.

Results

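A set of 8 genes of glutamate transport and of the glutamate-glutamine cycle were followed in RNA-seq libraries from mouse brain, chosen by gene symbol from the 24421 genes listed in every library table (8 of 24421). They are 3 vesicular transporters (Slc17a7, Slc17a6 and Slc17a8), 3 plasma membrane transporters (Slc1a1, Slc1a2 and Slc1a3) and the enzymes glutamine synthetase (Glul) and glutamate dehydrogenase (Glud1). The study concerns ERK signalling in excitatory and inhibitory neurons in Noonan syndrome. There were 2 libraries labelled excitatory, from aCaMKII-positive neurons, and 2 labelled inhibitory, from vGAT-positive neurons. Each was made from 100 fluorescent cells picked by hand with a glass pipette. The labels describe αCaMKII-Cre and vGAT-IRES-Cre colonies kept by crossing to wild-type C57Bl/6J mice, and male mice of 3 to 5 months of age were used. The αCaMKII promoter is active mainly in excitatory neurons of the forebrain, and the vGAT gene in neurons that release GABA or glycine. No treatment is named for these libraries, and the labels do not say which animals gave which cells, so p-values measure the spread between libraries, which may be technical.

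Neurons load glutamate into synaptic vesicles with the vesicular transporters: Slc17a7 (VGLUT1) is the main form of cortical and hippocampal pyramidal cells, Slc17a6 (VGLUT2) of thalamic and other subcortical neurons, and Slc17a8 (VGLUT3) occurs in scattered interneurons and brainstem neurons. Released glutamate is cleared mostly by astrocytes through Slc1a2 (GLT-1) and Slc1a3 (GLAST), while Slc1a1 (EAAC1) is the transporter of neurons. Astrocytes turn glutamate into glutamine with Glul, neurons turn the glutamine back into glutamate, and Glud1 links glutamate to the citric acid cycle in mitochondria.

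The deposited value of a gene is on a log2 scale, and a difference below is the mean of the excitatory pair minus that of the inhibitory pair. A library had 12609 to 12798 genes above 0. Depth, estimated from how far apart the lowest values lie, was 61900000 to 74200000 reads. The median difference over the 13619 genes tested was 0.52, so a typical gene was higher in the excitatory libraries as deposited. For that reason each difference is also given after median-of-ratios scaling, called scaled below, which set that median to -0.01. Slc32a1, which encodes vGAT, had 0 in each of the 4 libraries, so the labels excitatory and inhibitory name libraries here and not proven cell types. Not all GABAergic markers were at 0: Gad1 had 10.91 and 11.17 in the excitatory pair and 11.45 and 11.59 in the inhibitory libraries. Of 9 such markers 6 were tested with limma. At an adjusted p under 0.05, 2 were higher in the excitatory pair and 1 in the inhibitory libraries (1 and 2 scaled). Of all tested genes 45.0% and 26.8% were (32.4% and 33.5% scaled). Glial transcripts were abundant under both labels: all 14 astrocyte markers looked at were tested, and together they held 2.75% and 2.87% of the summed linear values in the excitatory libraries and 2.51% and 2.20% in the inhibitory libraries. The 8 pan-neuronal markers held 0.265% and 0.272% against 0.263% and 0.254%. The astrocyte sum rests mostly on its highest genes, Aldoc and Clu. Aldoc had 20.23 and 20.24 in the excitatory pair and 19.64 and 19.45 in the inhibitory libraries. Clu had 18.83 and 18.88 against 18.25 and 18.09. The sums are not corrected for gene length, so they do not measure how much astrocyte RNA there was beside neuronal RNA.

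The stretches upstream of 4 of the genes are shown because they belong to the pair with opposite values, each at or near 0 under 1 label, (Slc17a6 and Slc1a1) and to the astrocyte pair that held CCAAT (Slc1a3 and Glul). They are RefSeq windows on GRCm38.p6, of at most 250 bases before the annotated start, 5′ to 3′ on the strand of the gene. Capitals mark matches on either strand to 4 motifs: the TATA motif TATAAA, the box named CCAAT, the GC box GGGCGG and the E-box CACGTG. None of these motifs holds another.
Slc17a6, chr7:51621580-51621829, + strand: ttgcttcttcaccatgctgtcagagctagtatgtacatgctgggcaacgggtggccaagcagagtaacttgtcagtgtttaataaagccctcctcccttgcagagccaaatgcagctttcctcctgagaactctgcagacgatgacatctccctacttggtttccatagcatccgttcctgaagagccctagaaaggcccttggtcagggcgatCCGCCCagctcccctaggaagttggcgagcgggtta
Slc1a1, chr19:28834885-28835048, + strand: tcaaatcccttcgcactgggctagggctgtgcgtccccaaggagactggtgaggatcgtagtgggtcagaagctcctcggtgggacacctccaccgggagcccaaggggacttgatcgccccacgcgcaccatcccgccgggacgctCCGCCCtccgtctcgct
Slc1a3, chr15:8710808-8711057, - strand: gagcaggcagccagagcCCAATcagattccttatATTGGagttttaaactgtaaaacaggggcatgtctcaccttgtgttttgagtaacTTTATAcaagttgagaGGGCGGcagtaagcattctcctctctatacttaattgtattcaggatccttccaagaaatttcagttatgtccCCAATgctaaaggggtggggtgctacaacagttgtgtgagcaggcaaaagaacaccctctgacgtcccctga
Glul, chr1:153899679-153899928, + strand: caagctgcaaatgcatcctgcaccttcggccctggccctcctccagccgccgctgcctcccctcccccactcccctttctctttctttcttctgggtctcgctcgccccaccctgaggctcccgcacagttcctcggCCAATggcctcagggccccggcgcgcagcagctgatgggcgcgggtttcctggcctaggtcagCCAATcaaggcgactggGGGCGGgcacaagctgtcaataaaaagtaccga
Over the 8 genes, with the window nearest the GENCODE start of each, GGGCGG was found in 6, CCAAT in 2 (Slc1a3 and Glul), TATAAA in 1 (Slc1a3) and CACGTG in 0. The only window of Slc1a2 lies 47779 bases from its GENCODE start, within the gene. It held none of the motifs, and the stretch before that start was not looked at. Of 32851 RefSeq windows of 250 bases, 32.7% held GGGCGG, 33.8% CCAAT, 12.4% TATAAA and 6.02% CACGTG. The windows of Slc17a6 and Slc1a1 each held 1 GGGCGG match and none of the other motifs. The expression values below do not test these letters.

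The genes of astrocyte uptake and glutamine synthesis were among the highest of all genes under both labels, ranked by deposited values not corrected for gene length. Slc1a2 ranked 13 to 18 in a library, Glul 40 to 55, Slc1a3 120 to 201 and Glud1 339 to 581. Slc17a7 ranked 2148 to 2792, Slc17a8 10778 to 11573. The 8 genes together held 0.842% and 0.828% of the summed linear values in the excitatory pair and 0.871% and 0.910% in the inhibitory libraries, of which Slc1a2 alone made up 0.556%, 0.549%, 0.532% and 0.568%.

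**Figure D1:**
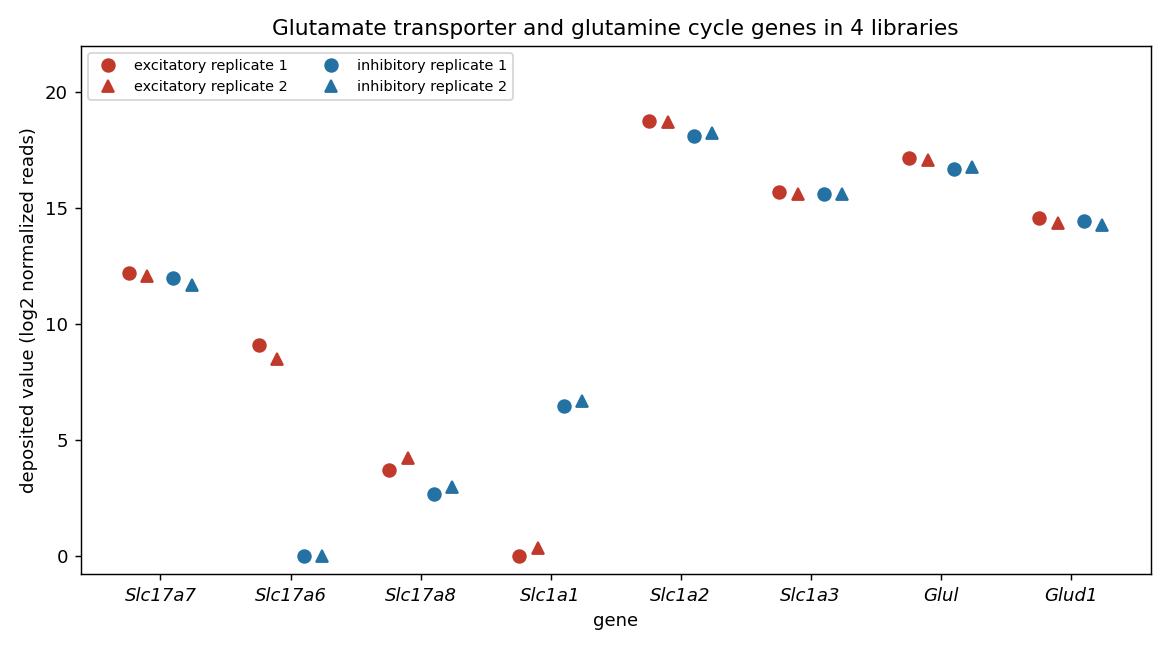
Deposited log2 values (vertical axis) of the 8 genes (horizontal axis) in each library, with red for the libraries labelled excitatory, blue for inhibitory, circles for replicate 1 and triangles for replicate 2. Slc1a2 and Glul lie highest in all 4 libraries, Slc17a6 is at 0 in the inhibitory libraries and Slc1a1 is at 0 and 0.35 in the excitatory libraries.

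Per kilobase of annotated exon, where genes can be set beside each other, the order of levels began the same way in all 4 libraries: Glul, Slc1a2, Slc1a3, Glud1, Slc17a7. On this linear scale Glul was at 44070 and 42099 normalized reads per kilobase in the excitatory pair and 31422 and 34100 in the inhibitory libraries, 1.30 to 1.45 times Slc1a2. Slc1a2 was at 33968 and 32381 against 21647 and 23492. Within each label the ranges of Glul and Slc1a2 did not overlap. Slc1a3 (5794 to 6201) and Glud1 (4741 to 5837) were the closest neighbours by this length: Slc1a3 was the higher in each library by 1.06 to 1.22 times, but over all 4 libraries their ranges overlapped. Slc17a7 was at 602 to 866, and Slc1a2 stood 28.7 to 40.8 times above it. Below Slc17a7 the order differed between the labels: Slc17a6 then Slc17a8 then Slc1a1 in the excitatory, and Slc1a1 then Slc17a8 with Slc17a6 at 0 in the inhibitory libraries. Using the longest transcript as the length left the order of the 8 genes as it was in 4 of 4 libraries, but it moved the ratios. Slc1a3 then stood 1.65 to 1.89 times above Glud1, Glul 1.36 to 1.53 times above Slc1a2, which made these the closer pair, and Slc1a2 18.6 to 26.4 times above Slc17a7.

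Among the vesicular transporters, Slc17a6 was at 0 in both inhibitory libraries, whereas Slc17a7 and Slc17a8 did not pass the test. The labels did not overlap for any of these transporters, as for 86.4% of all tested genes. How many other genes were at 0 throughout 1 label was not counted. Slc17a6 (chromosome 7, 51622006 to 51671119, GRCm38) had 9.08 and 8.49 in the excitatory libraries, about 417 and 292 reads as estimated from the spacing, and 0 in each inhibitory library. It passed limma's test in the deposited (adjusted p = 1.06e-04) and the scaled values (adjusted p = 1.37e-04). No fold is given against libraries at 0, and a listed 0 was not read as absence. The gene entered the test only through its excitatory libraries, so it had to differ. Beside it, other markers of glutamatergic neurons were called both ways: of 10 tested, 5 were higher in the excitatory pair and 4 in the inhibitory libraries (4 and 5 scaled), beside 45.0% and 26.8% of all tested genes (32.4% and 33.5% scaled).

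Slc17a7 (chromosome 7, 45163949 to 45176142) had 12.19 and 12.06 in the excitatory pair and 11.99 and 11.67 in the inhibitory libraries. The groups did not overlap, but the gap between them was smaller than the spread of the inhibitory pair. At 0.30 (SE 0.17, 95% interval -0.16 to 0.76) the difference missed the threshold of limma's test (adjusted p = 0.182). After scaling the sign turned to -0.24 (interval -0.74 to 0.26, adjusted p = 0.312), so the direction of this transporter of pyramidal cells depended on the scaling. Its share of the summed values was 0.00583% and 0.00552% against 0.00760% and 0.00598%. Set against Camk2a, the gene of the labelling promoter, within each library, Slc17a7 was -4.34 and -4.40 in the excitatory pair and -3.61 and -3.99 in the inhibitory libraries. That ratio does not depend on scaling, and it was lower in both excitatory libraries. Camk2a itself was higher there, by 0.87 as deposited and 0.33 scaled (limma adjusted p = 3.18e-04 and 0.00677). The ratio thus does not show that Slc17a7 was low. With 2 against 2 libraries an exact two-sided permutation test cannot go below 0.333, which it gave for this ratio.

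Slc17a8 (chromosome 10, 89574020 to 89621253) was near the lower end of detection, at 3.70 and 4.20 in the excitatory pair and 2.68 and 2.97 in the inhibitory libraries. These values stand for about 10, 15, 8 and 8 reads. All 4 libraries thus held a trace, and both excitatory values were the higher. At 1.12 (SE 0.40, interval 0.07 to 2.17) the difference missed the threshold over all genes (limma adjusted p = 0.0563), and it was 0.64 after scaling (interval -0.41 to 1.68, adjusted p = 0.215). Counting error at this depth is large, and whether a difference of the scaled size could be detected was not tested.

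Of the plasma membrane transporters, the neuronal gene Slc1a1 went against Slc17a6. Slc1a1 (chromosome 19, 28835049 to 28913960) was at 0 and 0.35 in the excitatory libraries, at most about 1 read, and at 6.48 and 6.66 in the inhibitory libraries, about 123 and 115 reads. It passed limma's test as deposited (adjusted p = 1.93e-04) and scaled (adjusted p = 1.98e-04). This gene too entered the test only through the group where it is high. The value may not belong to Slc1a1 alone, since the gene 4430402I18Rik lies on the other strand (28893042 to 28967800) and 2631 bases of its exons, of 5420, coincide with exons of Slc1a1. The labels mention no strand-marking step, so reads of the shared bases cannot be told apart. 4430402I18Rik showed the same split, with 0 and 0.35 in the excitatory pair and 9.82 and 9.81 in the inhibitory libraries.

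Slc1a2 and Slc1a3, the transporters of astrocytes, differed in how they related to the other genes. Slc1a2 (chromosome 2, 102658659 to 102790784) had 18.77 and 18.70 in the excitatory pair and 18.12 and 18.24 in the inhibitory libraries. The groups did not overlap, and the difference of 0.56 (SE 0.05, 1.47-fold) passed limma's test (adjusted p = 8.60e-04). It lay close to the median of all tested genes, and after scaling the values were 18.46 and 18.46 against 18.43 and 18.46. The scaled difference was 0.01 (95% interval -0.08 to 0.11, limma adjusted p = 0.737). That interval covers the spread between these libraries only and takes the scaling as exact, so it does not bound a difference between cell types. Without the mean-variance trend the SE of the deposited difference was 0.18 in place of 0.05. The deposited call was lost when excitatory replicate 1 (limma adjusted p = 0.0713) or replicate 2 of that label (0.0616) was left out.

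Slc1a3 (chromosome 15, 8634124 to 8710764) was near equal as deposited and lower in the excitatory libraries after scaling. It had 15.69 and 15.63 in the excitatory pair and 15.62 and 15.59 in the inhibitory libraries, a deposited difference of 0.05 (SE 0.06, limma adjusted p = 0.517). After scaling it had 15.39 and 15.39 against 15.94 and 15.82, a difference of -0.49 (SE 0.07, 1.41-fold higher in the inhibitory libraries, limma adjusted p = 0.00404). The scaled call held under upper-quartile and total scaling and was lost without excitatory replicate 1 (limma adjusted p = 0.0860) or excitatory replicate 2 (0.0836), where the difference was -0.46 and -0.45. As a share of the summed values, Slc1a3 was at 0.0660% and 0.0652% in the excitatory pair and 0.0944% and 0.0910% in the inhibitory libraries.

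**Figure D2:**
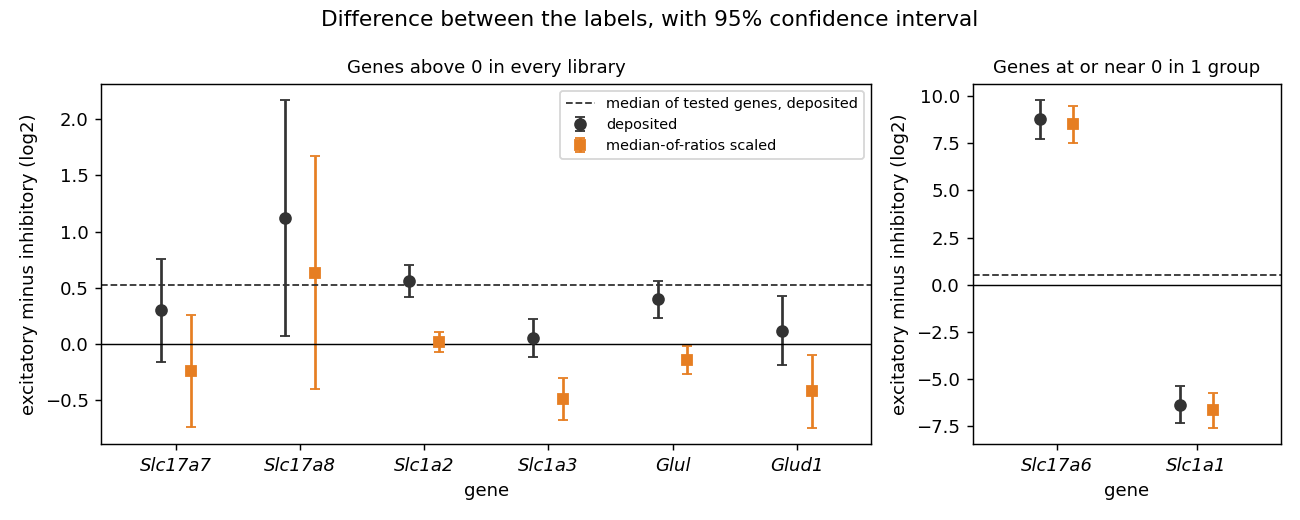
Excitatory minus inhibitory difference (vertical axis, log2) of each gene with its 95% confidence interval from limma, for deposited values (circles) and median-of-ratios scaled values (squares); the dashed line is the median of all tested genes as deposited, 0.52. The left panel holds the 6 genes above 0 in every library, where Slc1a2 lies at the dashed line and Slc1a3 at 0 as deposited; the right panel, on a wider axis, holds Slc17a6 and Slc1a1, which stand far from 0 in opposite directions.

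The ratio of the astrocyte transporters within a library needs no scaling, but it is not corrected for gene length. Slc1a2 exceeded Slc1a3 by 3.08 and 3.07 log2 units in the excitatory pair and by 2.49 and 2.64 in the inhibitory libraries. The groups did not overlap, and the mean ratio differed by 0.51 (exact permutation p = 0.333, the smallest possible). Against Aldoc, an abundant glycolytic gene of astrocytes, Slc1a3 was at -4.54 and -4.62 in the excitatory pair and -4.02 and -3.86 in the inhibitory libraries. Slc1a2 against Aldoc overlapped between the labels, at -1.46 and -1.55 against -1.53 and -1.22.

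Markers of astrocytes other than these transporters were mostly higher in the excitatory libraries. Of the 14 astrocyte markers, 12 passed limma's test as higher in the excitatory libraries and 0 as higher in the inhibitory ones, where 45.0% and 26.8% of all tested genes did. After scaling the counts were 7 and 1, beside 32.4% and 33.5%, with a list median of 0.34 beside -0.01 over all tested genes. Of 10 oligodendrocyte markers 7 were higher in the excitatory libraries as deposited and scaled (0 and 2 in the inhibitory ones), with a scaled median of 2.81. The list includes Mbp, and its summed share was larger in the inhibitory libraries (5.13% and 5.04%) than in the excitatory ones (3.78% and 3.82%). Of 10 microglia markers 0 were higher in the excitatory libraries and 6 in the inhibitory ones, 9 after scaling, and they held 0.0507% and 0.0563% of the summed values against 0.217% and 0.174%. The part of these other cells in the values of Slc1a2, Slc1a3, Glul and Glud1 was not tested. In libraries of pooled cells, fewer cells of a type and less RNA per cell cannot be told apart.

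**Figure D3:**
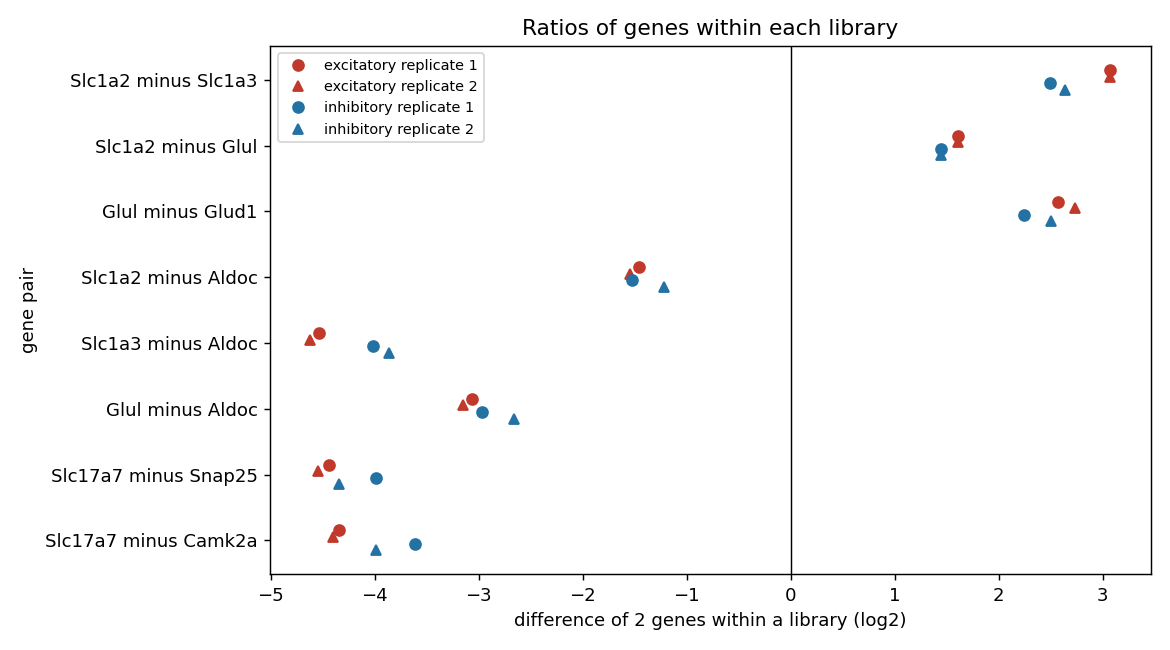
Difference of 2 genes within 1 library (horizontal axis, log2) for 8 gene pairs (vertical axis), with red for excitatory, blue for inhibitory, circles for replicate 1 and triangles for replicate 2. Slc1a2 minus Slc1a3 is 3.08 and 3.07 in the excitatory pair and 2.49 and 2.64 in the inhibitory libraries, while Slc1a2 minus Aldoc overlaps between the labels. Values are not corrected for gene length.

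The enzymes of the cycle differed by at most 1.34-fold in either scaling. Glul (chromosome 1, 153899944 to 153909723), which joins ammonia to glutamate in astrocytes, had 17.16 and 17.09 in the excitatory pair and 16.67 and 16.79 in the inhibitory libraries. At 0.40 (SE 0.06, 1.32-fold) the difference passed limma's test (adjusted p = 0.00420), although it was below the median of all genes. After scaling the values were 16.86 and 16.86 against 16.99 and 17.02, and the sign turned to -0.15 (SE 0.05, 1.11-fold higher in the inhibitory libraries, limma adjusted p = 0.0466). The scaled call did not hold under upper-quartile (adjusted p = 0.0893) or total scaling (0.0558), nor without any 1 library (0.0559 to 0.323). The deposited call was lost without excitatory replicate 1 (limma adjusted p = 0.107), excitatory replicate 2 (0.0873) or inhibitory replicate 1 (0.0610). Slc1a2 exceeded Glul by 1.61 and 1.60 log2 units in the excitatory pair and by 1.45 in each inhibitory library. Those differences are not corrected for gene length: per kilobase of exon Glul was the higher, by 1.30 to 1.45 times. The start of Glul shares 93 bases with the microRNA gene Mir8114, of its 111, and 116 with Teddm2 on the other strand. Mir8114 had 14.06 and 13.99 in the excitatory pair and 13.62 and 13.64 in the inhibitory libraries, and Teddm2 was at most 1.29 in any library. How reads of the shared bases were assigned is not stated.

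Glud1 (chromosome 14, 34310727 to 34345265) was the gene whose groups overlapped, with 14.59 and 14.37 in the excitatory pair and 14.43 and 14.29 in the inhibitory libraries. Its deposited difference was 0.12 (SE 0.12, interval -0.19 to 0.43, limma adjusted p = 0.405). After scaling it had 14.28 and 14.13 against 14.74 and 14.51, a difference of -0.42 (SE 0.12, 1.34-fold higher in the inhibitory libraries, limma adjusted p = 0.0345). That call held under upper-quartile and total scaling but not without any 1 library (limma adjusted p 0.0844 to 0.257). Glul exceeded Glud1 by 2.58 and 2.73 log2 units in the excitatory pair and by 2.24 and 2.51 in the inhibitory libraries. This too is without correction for gene length.

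The calls over the 8 genes were set beside those over all genes. As deposited, 3 were called higher in the excitatory libraries (Slc17a6, Slc1a2 and Glul) and 1 in the inhibitory ones (Slc1a1), where 71.8% of all tested genes were called, 45.0% higher in the excitatory pair and 26.8% in the inhibitory libraries. After scaling 1 was called higher in the excitatory (Slc17a6) and 4 in the inhibitory libraries (Slc1a1, Slc1a3, Glul and Glud1), beside 65.9% of all genes, 32.4% and 33.5% by direction. Library values did not overlap between the labels for 7 of the 8 genes and for 86.4% of all tested genes. From the deposited to the scaled values Slc1a2 lost its call, and Slc17a7, Slc1a3, Glul and Glud1 changed sign. The direction of Slc17a6 and Slc1a1, at or near 0 under 1 label, could not turn.

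Many genes had the same profile as the abundant members. Likeness was the root mean square difference over the 4 libraries after each gene's mean was removed. For Slc1a2, 420 genes were within 0.1, among them the mitochondrial ribosomal protein gene Mrpl48 (0.015). Glul had 407 genes within 0.1, Slc1a3 264, Glud1 183 and Slc17a7 151. Slc17a6 had 10, the nearest being Gm15471 (9.11, 8.53, 0 and 0) and Adamts1 (9.03, 8.50, 0 and 0). Slc1a1 had 3, the nearest being 9330188P03Rik (0, 0.35, 6.36 and 6.66) and Gbf1 (3.96, 4.21, 10.34 and 10.47). The profiles of Slc17a6 and Slc1a1 were thus shared by few genes at the same size, that of Slc17a8 by 34 and those of the abundant genes by 151 to 420. These counts were not set beside those of other genes of like level and difference, so they do not show a rare profile.

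Other genes that supply, carry or convert glutamate and glutamine were called on both sides, at shares near those of all tested genes. Of a list of 34 such genes 33 are in the tables, 28 were tested, 4 were listed at 0 in all libraries (Slc38a5, Slc1a5, Slc25a13 and Aldh18a1) and 1 was above 0 but too low to test (Ajuba). As deposited 14 of 28 were higher in the excitatory pair and 8 of 28 in the inhibitory libraries, beside 45.0% and 26.8% of all tested genes, with a list median of 0.74 beside 0.52. After scaling 10 and 11 were called, beside 32.4% and 33.5%, with a median of 0.20 beside -0.01. In both scalings 18 kept a call in the same direction, 10 higher in the excitatory pair and 8 in the inhibitory libraries. Without excitatory replicate 1 or excitatory replicate 2, 14 and 13 genes of the list passed in place of 22.

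The glutamine carriers of the cell membrane, which pass glutamine from astrocytes to neurons, were not all on one side. Slc38a3, the astrocyte exporter, had 13.65 and 14.45 in the excitatory pair and 11.96 and 11.73 in the inhibitory libraries (4.61-fold, scaled difference 1.66, limma adjusted p = 0.00245 as deposited). Both excitatory values were the higher, but the call was lost when inhibitory replicate 1 (limma adjusted p = 0.0924) or replicate 2 of that label (0.104) was left out. Slc38a2, an importer of neurons and other cells, had 12.60 and 12.57 against 10.51 and 10.25 (4.61-fold, scaled difference 1.66, limma adjusted p = 4.10e-04 as deposited). Slc38a1, the other importer of neurons, had 10.53 and 10.32 against 10.83 and 11.15. Its difference missed the threshold as deposited (-0.56, limma adjusted p = 0.0635) and passed when scaled (-1.10, 0.00623).

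The aminotransferases, which make glutamate from other amino acids or use it, were on both sides. Got1, the cytosolic aspartate form, was 1.81 higher in the excitatory libraries (SE 0.16), and Got2, the mitochondrial aspartate form, differed by -1.44 (SE 0.29, scaled -1.98). Gpt, an alanine form, was 3.17 higher in the excitatory libraries (SE 0.26), and Gpt2, the mitochondrial alanine form, differed by -1.04 (SE 0.20, scaled -1.58). Got2 and Gpt2, which fall outside the naming rule and were added after their values were seen, passed limma's test as deposited and scaled. Got2 lost its call when inhibitory replicate 1 (limma adjusted p = 0.136) or replicate 2 of that label (0.130) was left out, and Gpt2 when excitatory replicate 1 (0.0895) or replicate 2 of that label (0.0957) was. Of the branched-chain forms, Bcat1 differed by -2.88 (SE 0.24), and Bcat2 had 0 and 0 in the excitatory pair against 10.48 and 10.94. Bcat2 entered the test only through its inhibitory libraries, so it had to differ.

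Asns, which uses glutamine to make asparagine, had 11.82 and 11.55 in the excitatory pair and 5.08 and 4.85 in the inhibitory libraries, the largest difference among the list's genes above 0 in every library (6.72, SE 0.27). Prodh, the first enzyme of proline breakdown to glutamate, was 2.06 higher in the excitatory libraries (SE 0.18). Got1, Gpt, Bcat1, Asns and Prodh passed limma's test in both scalings and in the same direction (highest adjusted p 6.34e-04 as deposited and 0.00295 scaled).

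The mitochondrial carriers split as well. Slc25a12, the aspartate-glutamate exchanger of brain, had 11.81 and 12.30 in the excitatory pair and 9.70 and 9.37 in the inhibitory libraries, a call lost without inhibitory replicate 2 (limma adjusted p = 0.0527). Slc25a22, a glutamate carrier, had 10.09 and 9.87 against 11.72 and 11.45, a call lost without excitatory replicate 2 (limma adjusted p = 0.0521). At the cell membrane, Slc1a4, a neutral amino acid exchanger of the same family as the glutamate transporters, was 2.01 higher in the excitatory libraries (SE 0.24). Slc7a11, which exchanges cystine for glutamate, was 1.27 higher there (SE 0.16), and its call was lost without excitatory replicate 1 (limma adjusted p = 0.0823) or excitatory replicate 2 (0.0810). Slc25a12, Slc25a22, Slc1a4 and Slc7a11 passed limma's test in all 4 libraries as deposited (adjusted p 9.73e-04 to 0.00215) and scaled (0.00105 to 0.0253).

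**Figure D4:**
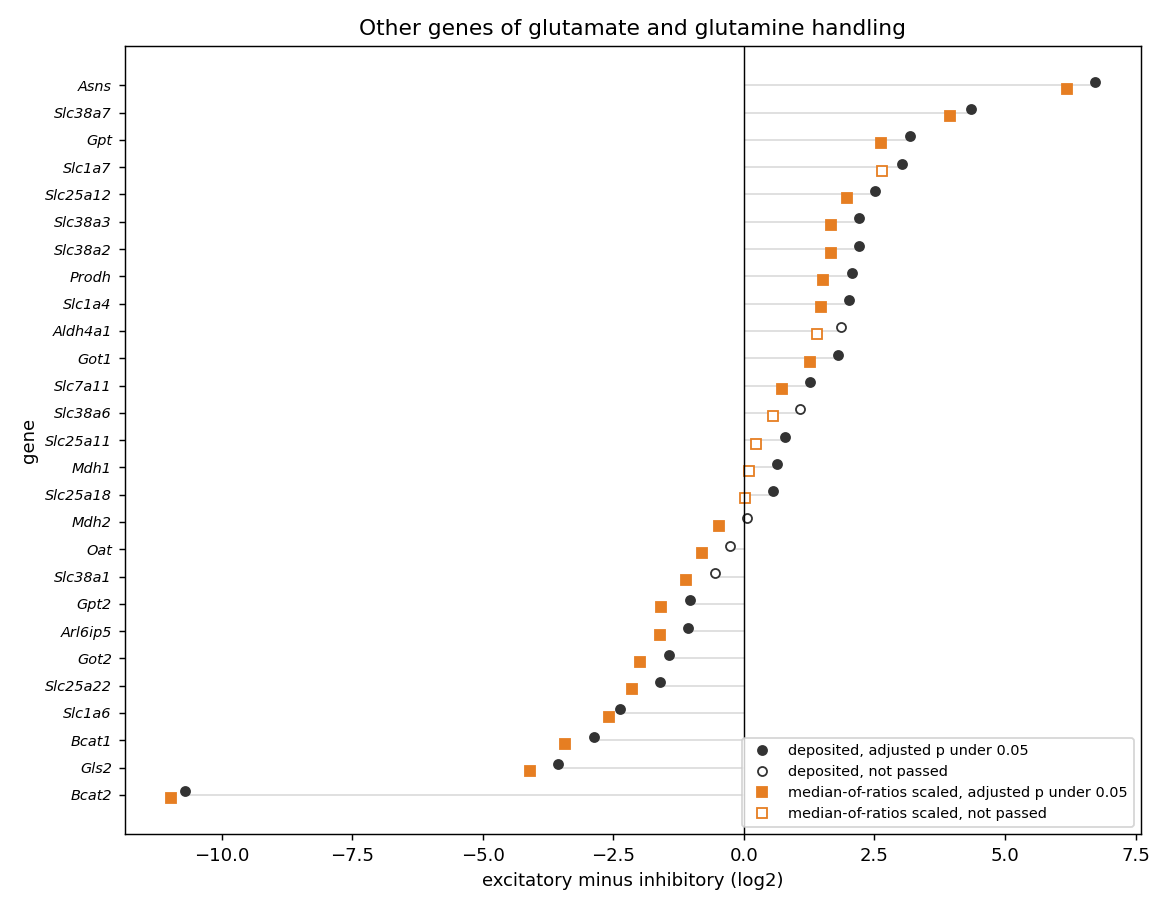
Excitatory minus inhibitory difference (horizontal axis, log2) of 27 of the 28 tested genes of glutamate and glutamine handling other than the 8 above (vertical axis), for deposited values (circles) and median-of-ratios scaled values (squares), filled where limma's adjusted p was under 0.05. As deposited 14 are called on the excitatory side and 8 on the inhibitory side, from Bcat2 at the lower end to Asns at the upper end.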

How the data were processed

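The submitters' processing notes name mm10, TopHat and edgeR, without roles or order; their versions, the read counter and the gene models are unstated in the labels. The deposited log2 values, 1 per gene and library, were scaled by the authors; their low values are evenly spaced once raised from log2, with a spacing of 1.29, 1.23, 0.721 and 0.871 in excitatory 1, excitatory 2, inhibitory 1 and inhibitory 2. Reads are estimates from that spacing, with no interval. Linear values are 2 to the power of the value minus 1, so that a listed 0 stays 0; the added 1 is an assumption. One gene above 0, Mbp, had the same deposited value (21.33) in all 4 libraries.

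The 8 genes, lists and tests were chosen with earlier results of these data known. In R 4.3.3, limma 3.58.1 with a mean-variance trend was fitted to the 13619 genes at 1 or more in at least 2 libraries; p-values are two-sided, adjusted by Benjamini-Hochberg over these genes (threshold 0.05). The residual had 2 and the prior 2.56 degrees of freedom. Named pathway genes were up to 12 past the threshold as deposited and scaled with the same sign, by smallest p, plus Slc38a1, Slc38a2, Slc38a3 and Slc38a5; some genes that the rules name are not reported here, and counts over lists include them; Slc17a5 ranked below these. Alternatives were 3 scalings, a pseudocount of 8, other filters, no trend, the replicate number as a block, and leaving out each library. Gene positions and exon lengths are from GENCODE M21 (8 of 8 symbols matched); windows are from RefSeq. Proteins were not used here.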

Additional observations from a re-analysis of the deposited data

How the results depend on the processing

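Slc17a6 and Slc1a1, at or near 0 under 1 label, had a direction that no rescaling could turn, so their unchanged calls say nothing of stability. With median-of-ratios, upper-quartile and total scaling, Slc17a7 turned to -0.24, -0.23 and -0.25, Slc1a3 to -0.49, -0.48 and -0.50, Glul to -0.15, -0.13 and -0.15 and Glud1 to -0.42, -0.41 and -0.43, while Slc1a2 stayed above 0 at 0.014, 0.031 and 0.0080 and no longer passed. The 3 scalings moved the median of all genes from 0.52 to between -0.01 and 0.01, and the excitatory-high share of called genes from 62.6% to between 49.0% and 49.7%. Without the mean-variance trend, with unchanged differences, Slc17a8 passed (1.12, limma adjusted p = 0.0286), and Slc1a2 (0.56, 0.0563) and Glul (0.40, 0.123) did not. Slc17a8 gave no value under the filter of 5. Leaving out each library gave 0.50 to 0.62 for Slc1a2, 0.34 to 0.46 for Glul, 6103 to 6551 called genes in place of 9777, and 13 to 17 called genes of the pathway list in place of 22; each such fit leaves 1 library in a group, assumed to vary like the others. Added after the data were seen, the scaled differences without 1 library ran from -0.025 (without inhibitory replicate 1) to 0.055 for Slc1a2, -0.58 to -0.45 for Slc1a3, -0.19 to -0.11 for Glul and -0.56 to -0.31 for Glud1. The replicate numbers are not stated to pair libraries: deviations of same-numbered libraries correlated at -0.002 across genes, which are not independent, and with the replicate block 9782 genes passed, in place of 9777, and the difference of no member changed its call (Slc1a2 0.56, Glul 0.40). The longest transcript as length moved levels per kilobase, not their order. Depth limits Slc17a8 and the excitatory values of Slc1a1.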

Other observations

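The remaining genes of the Slc17 family, named after their values were seen, differed among themselves. Slc17a1, Slc17a2, Slc17a3 and Slc17a4, relatives known as phosphate and organic anion transporters, were listed at 8.39, 6.69, 7.75 and 6.69 in excitatory replicate 2 and at 0 in the other 3 libraries, and were too rarely above 0 to be tested. Slc17a5, which encodes the lysosomal sialic acid transporter sialin, had 2.97 and 0 in the excitatory pair and 10.40 and 8.78 in the inhibitory libraries (limma adjusted p = 0.00307 as deposited and 0.00301 scaled). Slc17a9, a nucleotide transporter gene, was listed at 0 in all 4 libraries.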
